A study of Caenorhabditis elegans with 6 samples.

Results

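The 9 genes of the Caenorhabditis elegans germ granule and its small RNA machinery described here were taken as a fixed list of symbols. They comprise the helicase genes glh-1, glh-2 and glh-4, the granule protein genes pgl-1, pgl-3 and deps-1, and the Argonaute genes prg-1, csr-1 and wago-1. All 9 were found among the 46778 gene identifiers of the count tables, and all 9 were among the 15331 genes with enough reads to be tested.

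P granules are condensates of RNA and protein that sit on the outer face of germ cell nuclei in the worm and pass through the embryo with the germ line. PGL proteins form much of their body, Vasa-type GLH helicases hold them at nuclear pores, and Argonaute proteins loaded with small RNAs scan transcripts as these leave the nucleus. PRG-1 binds piRNAs, WAGO-1 carries the secondary small RNAs that silence the transcripts so found, and CSR-1 binds small RNAs antisense to transcripts that germ cells express.

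RNA came from whole animals in L4, the larval stage before adulthood, in 3 groups of 2 libraries. The first group was UM10 on csgA(-) bacteria, the second UM10 on the K12 strain BW25113 of Escherichia coli, and the third wild-type N2 on K12. UM10 carries a transgene, named unkIs7 in the titles, that makes human alpha-synuclein A53T under the promoter of aex-3, which is active in neurons. All animals were reared on their food from the egg onward. The csgA(-) bacteria lack csgA, which encodes the main subunit of the curli fibre. No libraries of N2 on csgA(-) were analysed here, so strain and food could not be tested for an interaction, and both UM10 groups were set against the same pair of N2 libraries.

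The foods of the 4 UM10 libraries follow the sample titles, which give the bacteria as WT or csgA, with WT taken as K12. The deposited file names give these foods the other way round. If the file names were right, the difference between the foods would change sign and both comparisons with N2 would exchange their values. The comparison of all 4 UM10 libraries with N2 does not depend on which is right.

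Libraries held 22657727 to 23532382 gene counts. N2 replicate 1 stood apart, with a scaling factor of 0.610 from edgeR's TMM (trimmed mean) method, against 1.02 to 1.20 in the other 5 libraries. Nothing in the labels says that replicates were separate cultures, so p-values measure the spread between these samples, which may be technical. By the quasi-likelihood test of edgeR with Benjamini-Hochberg adjustment, 1388 genes were called at an adjusted p under 0.05 in UM10 on csgA(-) against N2 (605 higher and 783 lower), 421 in UM10 on K12 against N2, and 1582 in all UM10 against N2 (777 higher and 805 lower). With upper-quartile scaling the splits were 452 higher and 920 lower, and 583 higher and 999 lower, in UM10 on csgA(-) and in all UM10.

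Among the helicases, UM10 and N2 were farthest apart in glh-2 and nearest in glh-1. Levels are in CPM, gene counts over the TMM-scaled library size, with all libraries brought to the same total. The germ line Vasa homologue glh-1 (WBGene00001598, WBcel235 chromosome I 6854478 to 6857536, plus strand) was at 239.5 and 232 CPM in UM10 on csgA(-), 134 and 203 CPM in UM10 on K12, and 96.9 and 270.2 CPM in N2. The N2 libraries held both the lowest and the highest of the 6 values, and every UM10 library lay between them.

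Its closest relative on the list, glh-2 (WBGene00001599, chromosome I 6513928 to 6517507, plus strand), was at 77.8 and 66.4 CPM in UM10 on csgA(-), 37.7 and 74.5 CPM in UM10 on K12, and 9.20 and 29.9 CPM in N2. Every UM10 library was above both N2 libraries. The helicase gene glh-4 (WBGene00001601, chromosome I 3727027 to 3731179, plus strand) was at 77.3 and 62.2 CPM in UM10 on csgA(-), 31.3 and 62.8 CPM in UM10 on K12, and 11.01 and 40.7 CPM in N2. Here N2 replicate 2 was above UM10 on K12 replicate 1, so the strains overlapped.

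EdgeR called none of the 3 helicases in any comparison, while DESeq2 called glh-2 higher in UM10 on csgA(-) against N2 (adjusted p 0.0128) and in all UM10 against N2 (adjusted p 0.00786). The difference was largest for glh-2, with a log2 fold change of 1.88 (standard error 0.55, edgeR quasi-likelihood test, Benjamini-Hochberg adjusted p 0.0563) in UM10 on csgA(-) against N2. It was 1.70 in all UM10 against N2 (standard error 0.51, edgeR adjusted p 0.0548). For glh-1 the same all-UM10 value was 0.12 (standard error 0.46, edgeR adjusted p 0.898), and its sign turned when upper-quartile scaling was used (-0.02).

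**Figure D1:**
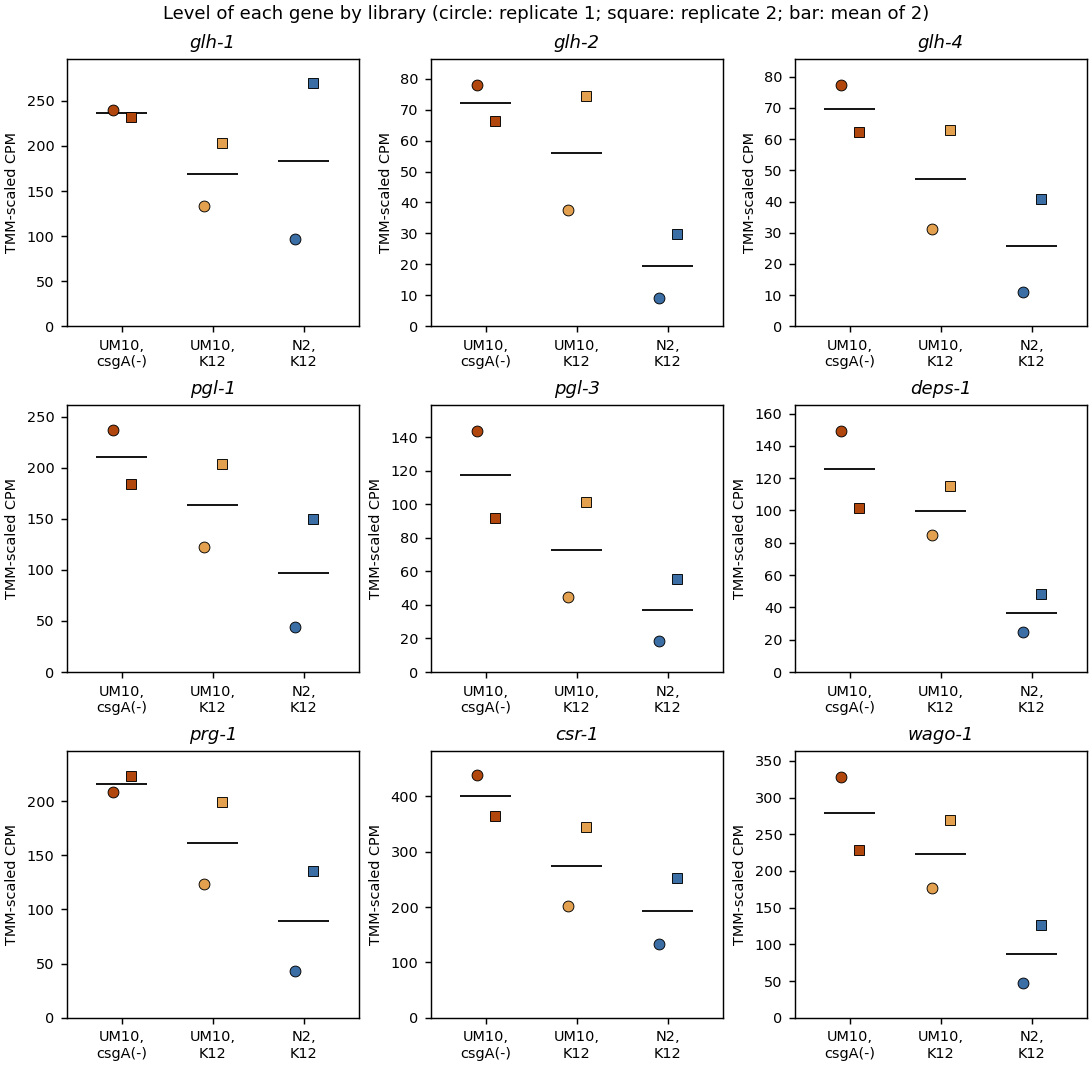
Each panel shows 1 gene, with its level in TMM-scaled CPM on the vertical axis, 1 point for each library and a bar at the mean of the 2 libraries of a group. N2 replicate 1 is the lowest library for all 9 genes, while for glh-1 N2 replicate 2 is the highest of the 6 at 270.2 CPM.

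Among the granule proteins, deps-1 was the only one of the 9 genes that edgeR called. DEPS-1 is a protein needed for P granules to assemble and for the expression of some RNA interference genes. The gene (WBGene00022034, chromosome I 506473 to 509056, plus strand) was at 149 and 102 CPM in UM10 on csgA(-), 84.7 and 115.2 CPM in UM10 on K12, and 24.8 and 48.3 CPM in N2. Every UM10 library was above both N2 libraries. It rose in UM10 on csgA(-) against N2, with a log2 fold change of 1.78 (standard error 0.46, edgeR quasi-likelihood test, Benjamini-Hochberg adjusted p 0.0384). It also rose in all UM10 against N2, by 1.61 (standard error 0.42, edgeR adjusted p 0.0365), where the mean was 113 ± 27.5 CPM in UM10 (SD, n = 4) and 36.6 ± 16.6 CPM in N2 (SD, n = 2).

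In UM10 on K12 against N2 the deps-1 log2 fold change was 1.45 (standard error 0.46, edgeR adjusted p 0.124), which missed the threshold, while DESeq2 called it (adjusted p 0.0415). The deps-1 call in all UM10 was lost without N2 replicate 1 (1.13, edgeR adjusted p 0.241), without UM10 on K12 replicate 1 (0.0835) or replicate 2 (0.0869), and without UM10 on csgA(-) replicate 1 (0.0836). The call in UM10 on csgA(-) was lost without the same 4 libraries, with edgeR adjusted p of 0.210, 0.0663, 0.0620 and 0.246 in that order, with only the libraries compared (0.0605) and with either stranded count column (0.0516 and 0.0504). Exons of deps-1 share 109 bases with Y65B4BL.7 on the other strand. The stranded columns do not separate the strands, with 48.4% to 49.7% of stranded counts in the first. In N2 replicate 1 deps-1 had 343 unstranded counts and 282 and 319 in the stranded columns, which together hold more reads.

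The scaffold gene pgl-1 (WBGene00003992, chromosome IV 6974441 to 6977318, minus strand) was at 236 and 184 CPM in UM10 on csgA(-), 122 and 204 CPM in UM10 on K12, and 44.4 and 149 CPM in N2. Its partner pgl-3 (WBGene00003994, chromosome V 4755979 to 4758587, plus strand) was at 144 and 91.7 CPM in UM10 on csgA(-), 44.5 and 101 CPM in UM10 on K12, and 18.7 and 55.2 CPM in N2. For both genes the UM10 on csgA(-) libraries lay above the N2 libraries, while UM10 on K12 replicate 1 lay between the N2 replicates. Log2 fold changes in all UM10 against N2 were 0.93 for pgl-1 (standard error 0.51, edgeR adjusted p 0.255) and 1.32 for pgl-3 (standard error 0.52, edgeR adjusted p 0.121). DESeq2 called pgl-3 in UM10 on csgA(-) against N2 (adjusted p 0.0357).

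The Argonaute genes gave a similar picture. The Piwi gene prg-1 (WBGene00004178, chromosome I 7585329 to 7588367, minus strand) was at 208 and 223 CPM in UM10 on csgA(-), 123 and 199 CPM in UM10 on K12, and 43.2 and 136 CPM in N2. The gene csr-1 (WBGene00017641, chromosome IV 7957267 to 7962157, plus strand) was at 439 and 364 CPM in UM10 on csgA(-), 201 and 345 CPM in UM10 on K12, and 133 and 252 CPM in N2. In both, UM10 on csgA(-) was above N2 in every library, while UM10 on K12 overlapped N2.

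The gene wago-1 (WBGene00011061, chromosome I 7235384 to 7238792, plus strand) was at 329 and 229 CPM in UM10 on csgA(-), 177 and 270.0 CPM in UM10 on K12, and 47.7 and 127 CPM in N2. Its 4 UM10 values were all above its N2 values. In all UM10 against N2 the log2 fold change was 1.52 for wago-1 (standard error 0.49, edgeR adjusted p 0.0710), 1.058 for prg-1 (standard error 0.49, edgeR adjusted p 0.183) and 0.78 for csr-1 (standard error 0.44, edgeR adjusted p 0.275). EdgeR called none of the 3, while DESeq2 called wago-1 in UM10 on csgA(-) against N2 (adjusted p 0.0176) and in all UM10 against N2 (adjusted p 0.0110). Exons of csr-1 share 438 bases with frpr-10 on the same strand and those of prg-1 share 12 bases with D2030.12.

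Counted together, edgeR called 1 of the 9 genes higher in UM10 on csgA(-) against N2, where it called 3.95% of all tested genes higher. DESeq2 called 4 of the 9 higher there (glh-2, pgl-3, deps-1 and wago-1), beside 1036 of all 15331 tested genes. In UM10 on K12 against N2 edgeR called 0 of 9, beside 2.20% of all tested genes called higher. At an unadjusted p under 0.05, 3 of 9 were higher there (glh-2, deps-1 and wago-1) and 0 lower, beside 19.1% of all genes in either direction. DESeq2 called 1 of the 9 higher there (deps-1), beside 791 of all 15331 tested genes. With all UM10 against N2 edgeR called 1 of 9 higher, beside 5.07% of all tested genes called higher. DESeq2 called 3 of the 9 higher there (glh-2, deps-1 and wago-1), beside 1311 of all 15331 tested genes.

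Groups were free of overlap in more of the 9 genes. In UM10 on csgA(-) against N2, 8 of 9 were higher in both libraries, all but glh-1, beside 34.3% of all tested genes. In UM10 on K12 against N2 it was 3 of 9, again glh-2, deps-1 and wago-1, beside 25.9%, and in all UM10 against N2 it was the same 3 genes, beside 21.1%. The median log2 fold change of the 9 genes was 1.43 in UM10 on csgA(-), 0.86 in UM10 on K12 and 1.14 in all UM10, each against N2. Over all genes tested the medians were 0.07, -0.09 and -0.04 in the same order, and they became -0.013, -0.12 and -0.10 with DESeq2 and -0.07, -0.23 and -0.19 with upper-quartile scaling.

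**Figure D2:**
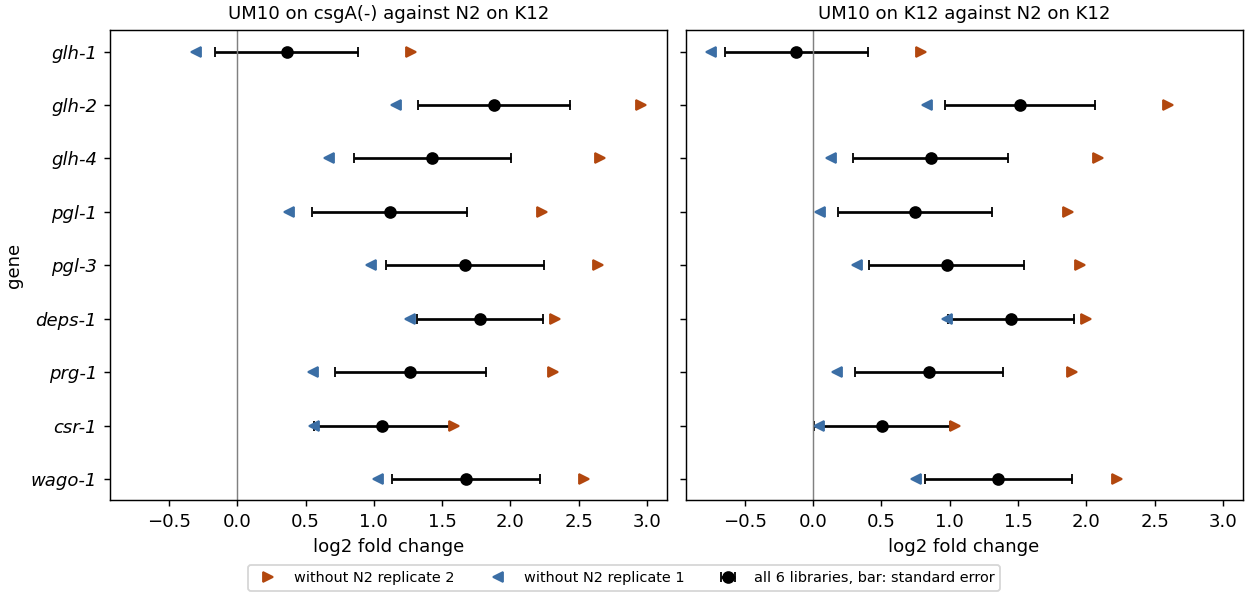
Log2 fold changes against N2 (horizontal axis) for each gene (vertical axis), in UM10 on csgA(-) at left and UM10 on K12 at right, with black points for all 6 libraries, bars for the standard error, and triangles for the fits without 1 N2 library. All 9 values moved down without N2 replicate 1 and up without N2 replicate 2, and glh-1 crossed 0 in both panels.

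How far the 9 genes differed between strains depended on which N2 library was used. N2 replicate 2 was higher than N2 replicate 1 in 9 of 9 genes, by 1.90-fold (csr-1) to 3.70-fold (glh-4). In UM10 on K12 replicate 2 was also the higher in 9 of 9, by 1.36-fold to 2.27-fold, while in UM10 on csgA(-) it was the higher in 1 of 9, prg-1. Without N2 replicate 1 the median log2 fold change in all UM10 against N2 was 0.40, with 8 of 9 genes above 0. The deps-1 call was lost there, in a fit where edgeR called fewer genes of any kind. Without N2 replicate 2 the median was 2.16, with 9 of 9 genes above 0. Each of these fits leaves 1 N2 library.

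Markers of germ cells moved along with the 9 genes. The summed level of the 9 genes was 1900.4 and 1555 CPM in UM10 on csgA(-), 956 and 1576 CPM in UM10 on K12, and 429 and 1109 CPM in N2. As a share of all gene counts, without TMM, it was 0.198% and 0.174% in UM10 on csgA(-). The share was 0.1145% and 0.182% in UM10 on K12, and 0.0261% and 0.1125% in N2. The 12 germ line markers summed to 2544 and 1937 CPM in UM10 on csgA(-), 1341 and 2314 CPM in UM10 on K12, and 461 and 1209 CPM in N2. The sums in CPM of the 9 genes and of the germ line markers were both lowest in N2 replicate 1, and 12 of 12 germ line markers were higher in N2 replicate 2 than in replicate 1. In whole animals the number of germ cells, the RNA per germ cell and the amount of RNA from other tissues cannot be told apart.

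The germ line markers had a median log2 fold change of 1.17 in all UM10 against N2, close to the 1.14 of the 9 genes. EdgeR called 1 of 12 (mex-3, 2.01, adjusted p 0.0292). DESeq2 called 5 of 12, and 3 of the 9 genes, beside 1311 of all 15331 tested genes called higher. At an unadjusted p under 0.05 in edgeR, 9 of 12 and 5 of the 9 genes were higher. Over all genes it was 28.3% in either direction. Without N2 replicate 1 the median of the germ line markers was 0.50, with 10 of 12 above 0. Oocyte markers summed to 5007 and 3454 CPM in UM10 on csgA(-), 3050.2 and 4983 CPM in UM10 on K12, and 448 and 1078 CPM in N2. All 11 were called higher in all UM10 against N2, with a median of 2.53. Without N2 replicate 1 the median was 1.99 and all 11 calls were lost, in a fit where edgeR called fewer genes of any kind.

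Sperm markers did not follow. They summed to 325 and 307 CPM in UM10 on csgA(-), 149 and 209.6 CPM in UM10 on K12, and 270.3 and 255 CPM in N2, and 0 of 10 tested were called against N2 in all UM10, with 0 at an unadjusted p under 0.05 in edgeR and 0 called by DESeq2. Intestine markers ran the other way, at 11311 and 8768 CPM in UM10 on csgA(-), 7937 and 7721 CPM in UM10 on K12, and 32178 and 10303 CPM in N2, where 0 of 6 were higher in replicate 2 than in replicate 1. In all UM10 against N2 the medians were -1.05 for 6 intestine markers (1 called lower, act-5), -0.77 for 6 body wall muscle markers (0 called by edgeR, 1 by DESeq2, 1 at an unadjusted p under 0.05), -0.17 for 8 neuron markers (0 by either tool or at an unadjusted p under 0.05) and -1.57 for 6 hypodermis markers (2 called lower, dpy-7 and sqt-3). At an unadjusted p under 0.05 in edgeR, 3 of the 6 intestine markers and all 6 hypodermis markers were lower in that comparison. Over all tested genes 28.3% passed in either direction. No marker of any list was at 0 in all libraries. The part of cell type makeup and of N2 replicate 1 in the values of the 9 genes was not tested.

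**Figure D3:**
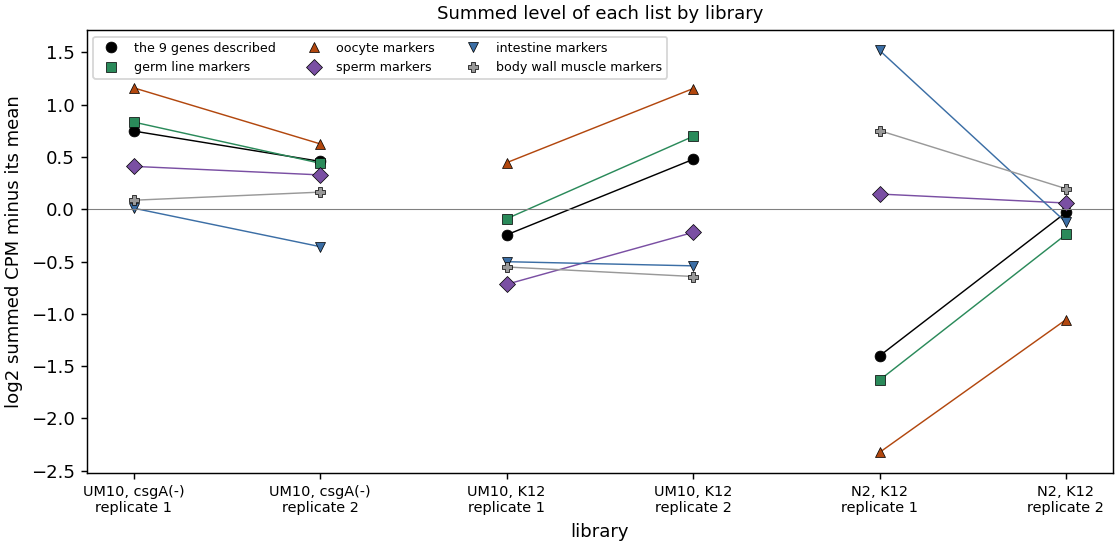
Log2 of the summed CPM of each list minus its mean over the 6 libraries (vertical axis), by library (horizontal axis), with lines joining replicates of a group. The 9 genes and the germ line and oocyte markers lie lowest in N2 replicate 1, where the intestine markers lie highest.

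Ratios between genes within a library are free of the library's scaling, and glh-1 stood out in them. These ratios were picked after their values were seen and carry no test. The count of glh-1 over that of glh-2 was 3.08 and 3.50 in UM10 on csgA(-), 3.55 and 2.73 in UM10 on K12, and 10.5 and 9.04 in N2. Over pgl-1 it was 1.01 and 1.26 in UM10 on csgA(-), 1.10 and 0.997 in UM10 on K12, and 2.18 and 1.81 in N2. In both ratios each UM10 library was below both N2 libraries, although the N2 replicates differed 2.79-fold in the level of glh-1 itself.

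Against each of the other 8 genes, glh-1 was lower in all 4 UM10 libraries than in both N2 libraries. The ratio was also lower against 10 of the 12 germ line markers. All these ratios share the count of glh-1, so they are not separate observations. Over the sum of the germ line markers, glh-1 was 0.0941 and 0.120 in UM10 on csgA(-), 0.0997 and 0.0878 in UM10 on K12, and 0.210 and 0.224 in N2. Its share of the reads of the 9 genes was 12.6% to 14.9% in UM10 and 22.6% to 24.4% in N2. A ratio shows unequal change and not which of the genes differed.

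The gene glh-2 was the mirror case, higher in UM10 without overlap in 6 of its 8 ratios. Among the 28 pairs that leave glh-1 out, 9 were free of overlap between the strains. Ratios free of overlap were not counted for pairs of other genes, so no background share stands beside these counts. The ratio of prg-1 to pgl-1 overlapped between the strains, at 0.881 and 1.22 in UM10 on csgA(-), 1.01 and 0.977 in UM10 on K12, and 0.974 and 0.909 in N2. The share of wago-1 in the reads of the 9 genes was 14.7% to 18.5% in UM10 and 11.1% to 11.4% in N2, with no overlap. The reads of all 9 genes together, over the sum of the germ line markers, were 0.681 to 0.802 in UM10 and 0.917 to 0.930 in N2.

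**Figure D4:**
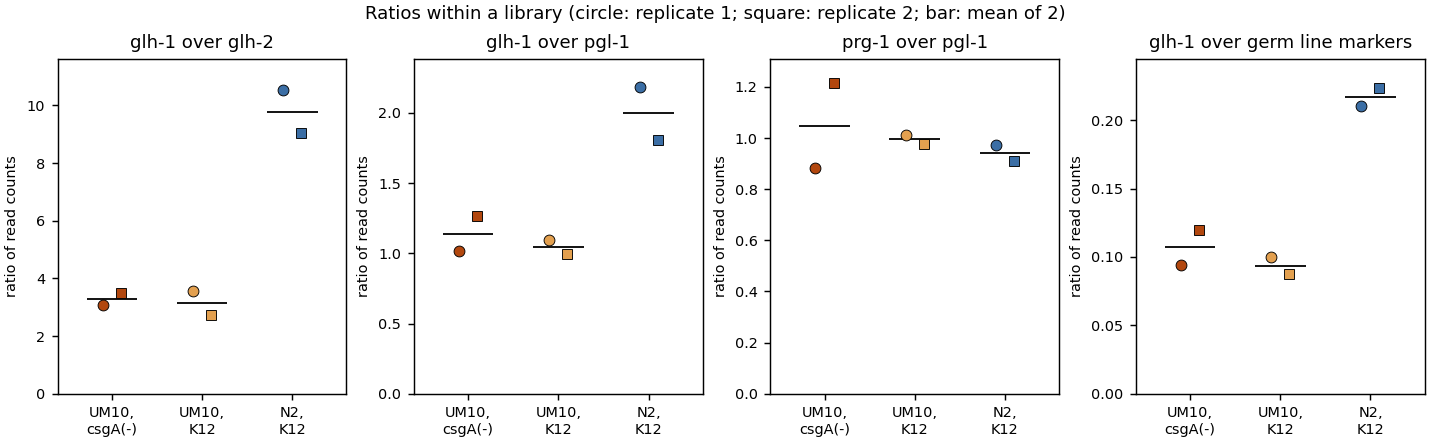
Ratios of read counts between genes of the same library (vertical axes), by group (horizontal axes), with 1 point for each library and a bar at the mean of 2. The glh-1 ratios are lower in all UM10 libraries than in N2, for example 2.73 to 3.55 against 9.04 to 10.5 over glh-2, while prg-1 over pgl-1 overlaps.

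Per length, averaged over the 6 libraries, csr-1 had the highest level at 78.8 CPM per kilobase of exon, followed by glh-1 at 70.8, wago-1 at 64.3, pgl-1 at 62.9 and prg-1 at 58.4. Below these stood deps-1 at 42.7, pgl-3 at 33.2, glh-2 at 15.3 and glh-4 at 12.7 CPM per kilobase. The order of the first 5 was not the same in every library. By this level glh-1 ranked 2 and 1 of 9 in N2 replicates 1 and 2, and between 2 and 5 in the UM10 libraries. The last 2 places went to glh-2 and glh-4 in every library, and neighbours within the first 5 did not differ beyond the spread between replicates.

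The food comparison within UM10 asked whether the 9 genes differed between csgA(-) and K12 bacteria. Log2 fold changes of UM10 on csgA(-) over UM10 on K12 were above 0 for 9 of 9 genes, and lay between 0.32 (wago-1) and 0.69 (pgl-3), with a median of 0.42 beside 0.00 over all tested genes. The standard errors were 0.45 to 0.56 and edgeR adjusted p ran between 0.795 and 0.928. None of the 9 was called by edgeR or DESeq2, and 0 had an unadjusted p under 0.05, beside 9.92% of all tested genes. Over all tested genes edgeR also called 0 (0% of genes).

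For glh-1, prg-1 and csr-1 both csgA(-) libraries were above both K12 libraries, beside 21.7% of all tested genes. The 9 genes were lower in UM10 on K12 replicate 1 than in the other 3 UM10 libraries, and without it the median log2 fold change was 0.08 with 6 of 9 above 0. The values for glh-2, pgl-1 and wago-1 were then below 0.

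Of 85 further genes of the granule and small RNA pathways, 83 were matched and 82 tested. In all UM10 against N2, 14 of 82 were called higher and 0 lower by edgeR, beside 5.07% and 5.25% of all genes. At an unadjusted p under 0.05, 44 were higher and 1 lower, beside 28.3% of all genes in either direction. In UM10 on csgA(-) it was 10 higher and 1 lower, beside 3.95% and 5.11%, and in UM10 on K12 5 higher and 0 lower, beside 2.20% of all genes called higher. At an unadjusted p under 0.05 the UM10 on K12 counts were 30 higher and 1 lower, beside 19.1% of all genes in either direction. Without N2 replicate 1 the calls among the 82 were lost in each of these comparisons, in a fit that leaves 1 N2 library. EdgeR called fewer genes of any kind in it. The medians in all UM10 against N2 were then 0.78 for P granule genes, 0.61 for Z granule and mutator genes and 0.59 for piRNA production. They were -0.50 for other Argonautes and 0.41 for Dicer, RNA-dependent RNA polymerase and nuclear RNA interference.

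Of the 14 genes called in all UM10 against N2, 7 were among the 16 other P granule genes, whose list median was 1.30. They included all 4 meg genes on the list, which encode disordered proteins that steer P granule assembly in the embryo. The gene meg-4 (chromosome X 1682954 to 1686419) was at 19.5 and 12.4 CPM in UM10 on csgA(-), 14.01 and 19.8 CPM in UM10 on K12, and 0.942 and 2.38 CPM in N2. The gene meg-1 (chromosome X 13927036 to 13929634) was at 90.4 and 57.2 CPM in UM10 on csgA(-), 51.6 and 92.0 CPM in UM10 on K12, and 4.997 and 14.5 CPM in N2. Both were several times higher in every UM10 library than in either N2 library.

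The log2 fold changes in all UM10 against N2 were 3.27 for meg-4 (standard error 0.53, edgeR adjusted p 0.00734), 2.97 for meg-3 (0.55, 0.0106) and 2.89 for meg-1 (0.53, 0.0102), and meg-2 was also called (0.0199). All 4 were also called in UM10 on csgA(-) and in UM10 on K12, each against N2. The calls in UM10 on K12 were lost for all 4 without N2 replicate 1 or 2 or without UM10 on K12 replicate 1 or 2. Each of these fits leaves 1 library in a group, and edgeR called fewer genes of any kind in it. Log2 fold changes of the 4 genes there lay between 2.12 (meg-2, without N2 replicate 1) and 4.15 (meg-4, without N2 replicate 2). The calls in UM10 on csgA(-) were lost for all 4 without N2 replicate 1, with values of 1.98 (meg-2) to 2.63 (meg-4). That of meg-2 was also lost without UM10 on csgA(-) replicate 1 (2.31). In these 2 fits, too, edgeR called fewer genes of any kind. Without N2 replicate 1 the all-UM10 values lay between 2.05 (meg-2) and 2.699 (meg-4), and edgeR adjusted p ran between 0.0817 and 0.175. The all-UM10 call of meg-2 was also lost without UM10 on K12 replicate 2 (0.0518). With all 6 libraries the all-UM10 log2 fold changes of the 4 meg genes were above those of the 9 genes. They were also above all 11 oocyte markers, whose median was 2.53 and highest value 2.6993. For meg-2, at 2.7005 (standard error 0.59), the margin over the highest oocyte marker was far smaller than its standard error.

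The other called P granule genes were mip-2, a LOTUS domain partner of GLH-1, gld-3, an RNA-binding regulator of the switch between sperm and oocytes, and glh-3, a further GLH helicase. In all UM10 against N2 their log2 fold changes were 2.05, 2.09 and 1.37 (edgeR adjusted p 0.0218, 0.0360 and 0.0467). Without N2 replicate 1, UM10 on K12 replicate 1 or UM10 on K12 replicate 2 these 3 calls were lost (edgeR adjusted p 0.0538 to 0.314), and those of gld-3 and glh-3 also without UM10 on csgA(-) replicate 1 (0.0584 and 0.0951). In UM10 on csgA(-) against N2 all 3 were called by edgeR, calls that held under 13 of 15 alternative settings for mip-2, 9 of 15 for gld-3 and 5 of 15 for glh-3, and that were lost for all 3 without N2 replicate 1 or UM10 on csgA(-) replicate 1 (0.0895 to 0.278). Those of gld-3 and glh-3 were also lost without UM10 on K12 replicate 1 or 2, and that of glh-3 without UM10 on csgA(-) replicate 2 (0.0606 to 0.0850). EdgeR called none of the 3 in UM10 on K12. For mip-2 the levels were 125 and 64.7 CPM in UM10 on csgA(-), 39.8 and 59.2 CPM in UM10 on K12, and 10.6 and 22.4 CPM in N2, with no overlap between the strains.

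Of 17 Z granule and mutator genes, which amplify secondary small RNAs, 4 were called higher in all UM10 against N2, with a list median of 1.14. They were mut-2, a nucleotidyltransferase that tails RNA, at 1.89, lotr-1, a LOTUS and Tudor domain protein, at 1.83, the NYN domain nuclease gene nyn-2 at 1.43 and the helicase gene smut-1 at 1.27 (edgeR adjusted p 0.0260, 0.0408, 0.0334 and 0.0453). The gene smut-1 overlaps crt-1 on the other strand, and its value was -0.48 and -0.51 with the stranded columns. With 48.4% to 49.7% of stranded counts in the first, these columns do not separate the strands and do not correct for crt-1. In N2 replicate 1 smut-1 had 121 unstranded counts but 610 and 628 in the stranded columns. The gene mut-2 overlaps bli-4 on the other strand. These calls held under 12 of 14 alternative settings for mut-2, 10 for lotr-1, 9 for nyn-2 and 4 for smut-1, and all 4 were lost without N2 replicate 1 (edgeR adjusted p 0.207 to 0.277) or UM10 on K12 replicate 1 (0.0831 to 0.145). Those of lotr-1, nyn-2 and smut-1 were also lost without UM10 on K12 replicate 2 or UM10 on csgA(-) replicate 1 (0.0770 to 0.0965), those of nyn-2 and smut-1 without N2 replicate 2 (0.0706 and 0.0917), and that of smut-1 without UM10 on csgA(-) replicate 2 (0.0502). Of these 4, edgeR also called mut-2 and nyn-2 in UM10 on csgA(-) against N2, but only under 5 and 9 of 15 alternative settings, with adjusted p up to 0.286 and 0.276. Both were lost there without N2 replicate 1, UM10 on K12 replicate 1 or 2 or UM10 on csgA(-) replicate 1, and nyn-2 also without N2 replicate 2. EdgeR called 0 of 17 in UM10 on K12, with 6 at an unadjusted p under 0.05, beside 19.1% of all genes in either direction. DESeq2 called 2 of 17 there, beside 1181 of all 15331 tested genes.

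Of 14 piRNA production genes, 2 were called higher in all UM10, with a list median of 0.94. Both encode proteins of the PETISCO complex. Whether the making of piRNAs itself differed was not tested. The gene tost-1 was at 56.1 and 41.6 CPM in UM10 on csgA(-), 94.9 and 52.4 CPM in UM10 on K12, and 19.3 and 20.7 CPM in N2. Its N2 replicates were close together, unlike those of the 9 genes, and its log2 fold change was 1.59 in all UM10 (edgeR adjusted p 0.0279) and 1.88 in UM10 on K12 (edgeR adjusted p 0.0423). For tofu-6 it was 1.21 in all UM10 (edgeR adjusted p 0.0443), a call that held under 6 of 14 alternative settings, was lost without any 1 library but UM10 on csgA(-) replicate 2, and had adjusted p up to 0.250. The tost-1 call in all UM10 was lost without N2 replicate 1 or 2, UM10 on K12 replicate 1 or UM10 on csgA(-) replicate 1 (edgeR adjusted p 0.0700 to 0.209), and the one in UM10 on K12 without either N2 library or UM10 on K12 replicate 1 (0.0876 to 0.370). Without N2 replicate 1 tost-1 kept a value of 1.80 in UM10 on K12, with an edgeR adjusted p of 0.243.

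The other Argonautes were the list that did not lean one way, with a median of -0.08 in all UM10 against N2, 8 of 17 above 0 and 1 called (vsra-1, 1.35, edgeR adjusted p 0.0420). The vsra-1 call held under 7 of 14 alternative settings, with edgeR adjusted p up to 0.287, and was lost without any 1 library but UM10 on csgA(-) replicate 2. EdgeR also called vsra-1 in UM10 on csgA(-) against N2, at 1.66 (standard error 0.41, adjusted p 0.0305). That call held under 9 of 15 alternative settings. The nuclear germ line Argonaute hrde-1 had 1.74 in all UM10 against N2 (edgeR adjusted p 0.0659). The Argonaute gene sago-2 was at 1.44 and 5.45 CPM in UM10 on csgA(-), 17.3 and 17.6 CPM in UM10 on K12, and 23.5 and 16.4 CPM in N2. It stood low in both csgA(-) libraries and fell in UM10 on csgA(-) against N2 by 2.53 on the log2 scale (standard error 0.59, edgeR adjusted p 0.0264), a call lost without N2 replicate 1 (adjusted p 0.147) or without UM10 on csgA(-) replicate 1 (0.0857).

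Against UM10 on K12 the sago-2 value was -2.34 (standard error 0.59), which edgeR did not call (adjusted p 0.220) and DESeq2 did (adjusted p 0.00505). The annotated pseudogenes prg-2 and wago-2, close copies of prg-1 and wago-1, had log2 fold changes of -0.08 and -0.14 in all UM10 against N2. Reads that match a gene and its copy equally well were not counted, so these 4 values are uncertain.

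The Argonaute genes of the sperm-making germ line, alg-3, alg-4 and wago-10, were named after their values were seen. They had log2 fold changes of 1.55, 1.58 and 2.24 in UM10 on csgA(-) over UM10 on K12, with edgeR adjusted p of 0.420, 0.397 and 0.394. For alg-3 the levels were 30.3 and 36.0 CPM in UM10 on csgA(-) and 5.24 and 17.5 CPM in UM10 on K12. The sperm markers were also above 0 in 10 of 10 genes in this comparison (9 of 10 with DESeq2 size factors). Their median was 0.83, beside 0.00 over all tested genes, and edgeR and DESeq2 called 0 of them. At an unadjusted p under 0.05 in edgeR 3 were higher and 0 lower, beside 9.92% of all genes in either direction.

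Among 18 genes of Dicer complexes, RNA-dependent RNA polymerases and nuclear RNA interference, edgeR called 0 in any comparison. DESeq2 called 2 in all UM10 against N2, beside 2661 of all 15331 tested genes. In UM10 on K12 against N2 it called 1, beside 1181 of all tested genes. The median of the 18 genes in all UM10 against N2 was 0.91 with 16 of 18 above 0. At an unadjusted p under 0.05 in edgeR 10 were higher and 0 lower, beside 28.3% of all genes in either direction. The smallest p was that of the nuclease gene rde-8, with a log2 fold change of 1.31 (standard error 0.39, edgeR adjusted p 0.0534), 1 of those that DESeq2 called (adjusted p 0.0223).

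**Figure D5:**
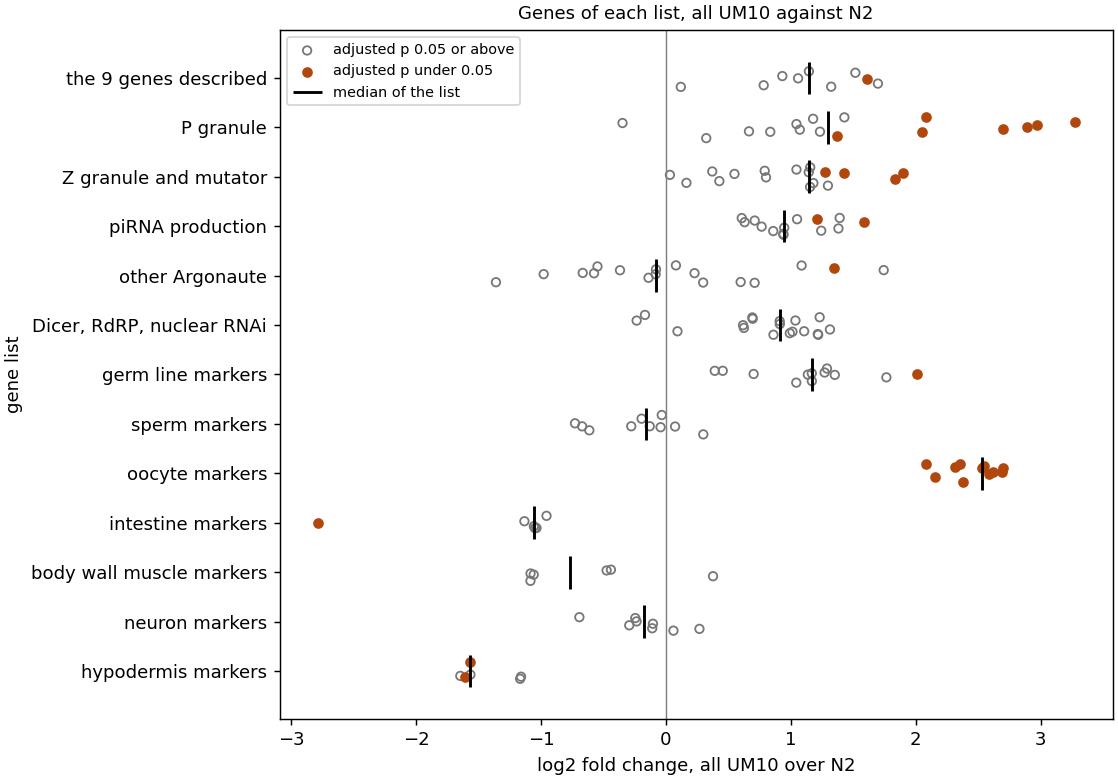
Log2 fold change of all UM10 over N2 (horizontal axis) for every tested gene of each list (vertical axis), with filled points for genes at an edgeR adjusted p under 0.05 and a bar at the list median. The 9 genes (median 1.14) lie with the germ line markers (1.17), below the oocyte markers (2.53) and above the sperm markers (-0.16).

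The genes outside all lists whose profile over the 6 libraries was most like the mean of the 9 were sought among the 11621 genes that averaged 50 counts or more. Likeness was the root mean square difference of centred log2 CPM over the 6 libraries. It was 0.0392 for fcd-2, 0.0627 for smc-3, 0.0689 for usp-48, 0.0712 for K12D12.5 and 0.0761 for parp-1. The 9 genes themselves lay at 0.109 (pgl-1) to 0.481 (glh-1). The 5 were picked as the nearest of 11621 genes, so their smaller values do not tell how alike the 9 genes are. The nearest, fcd-2, was at 38.9 and 31.6 CPM in UM10 on csgA(-), 19.7 and 31.4 CPM in UM10 on K12, and 6.88 and 19.9 CPM in N2.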

How the data were processed

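The authors deposited a table of read counts per gene for each library, not normalized, in the layout that STAR writes, with an unstranded column and a column for each strand. The submitters' processing notes name STAR 2.7.5, DESeq2 1.28.1 and the build WBcel235. The annotation they counted with is not given in the sources used here. The unstranded counts were used. In each library the first strand column held 48.4% to 49.7% of the stranded counts, so the reads did not keep their strand. Summary lines for unmapped, multiply mapped, unassigned and ambiguous reads (7.85% to 8.72% of reads per library, with multiply mapped reads alone at 2.57% to 4.05%) stayed out of library sizes and tests. Gene symbols, coordinates and exon lengths come from Ensembl release 115 for WBcel235. RefSeq symbols were used for prg-2, wago-2 and wago-11, and tofu-3, cde-1 and the marker opt-2 were not matched.

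Genes were kept by filterByExpr (10 or more counts in a library of median size, in 2 libraries, and a total of 15 or more). Libraries were scaled by TMM. One fit of all 6 libraries with 1 term per group, with 3 residual degrees of freedom, was tested by quasi-likelihood F tests in edgeR 4.0.16 (limma 3.58.1, R 4.3.3) and Benjamini-Hochberg adjustment over all genes tested within each comparison. The all-UM10 comparison sets the mean of both UM10 group terms against N2. Each standard error was derived from F, as the size of the log2 fold change divided by the root of F. Means are given with SD and n. The procedure was tested on simulated data.

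The 9 genes and all lists were chosen with earlier results of these data known. All 9 are named. From each pathway list, the called genes of each comparison were to be named, at most the 4 with the smallest p, or the 1 with the smallest p where none was called. By this rule simr-1 and nrde-2 were also due for the foods, at 0.83 and 0.58 (edgeR adjusted p 0.673 and 0.769). So was eri-5 for UM10 on csgA(-) against N2, at 1.44 (edgeR adjusted p 0.0887). The genes gld-3, glh-3, prg-2, wago-2, alg-3, alg-4 and wago-10 and the markers named fall outside this rule and were chosen after their values were seen. Alternatives were RLE and upper-quartile scaling, DESeq2 1.42.0, other count filters, the stranded columns, fits of only the libraries compared, a replicate block and leaving out each library.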

Additional observations from a re-analysis of the deposited data

How the results depend on the processing

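Groups of 2 libraries limit every result here. Each of the 9 genes had at least 127 counts in every library, while meg-2 and meg-4 had 12 and 13 counts in N2 replicate 1 and sago-2 had 35 in UM10 on csgA(-) replicate 1, where counting error is larger. Genes called in UM10 on csgA(-) against N2 numbered 2574 with DESeq2 and 2705 without a count filter, in UM10 on K12 against N2 276 with upper-quartile scaling, 1181 with DESeq2 and 1333 without the filter, and in all UM10 against N2 2661 with DESeq2 and 2831 without the filter. In UM10 on csgA(-) against UM10 on K12 they were 242 with DESeq2, 470 without the filter, 2 at 1 CPM or more in 2 libraries, and 1 and 4 with the stranded columns. Of the 9 genes, UM10 on csgA(-) against N2 had 4 called with DESeq2, 5 without the filter, and 0 with the second stranded column or only the libraries compared. UM10 on K12 against N2 had 1 and 2 with DESeq2 and without the filter, and all UM10 had 3 and 5, and 2 with the first stranded column. Pathway list genes called were 19 without the filter and 6 with only the libraries compared in UM10 on csgA(-) against N2. They were 3, 12 and 13 with upper-quartile scaling, DESeq2 and no filter in UM10 on K12, 23 and 24 with DESeq2 and no filter in all UM10, and 1 and 3 between the foods. The cause of these shifts was not tested.

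Leaving out 1 library at a time gave 157 to 1544 genes called in UM10 on csgA(-) against N2, 2 to 579 in UM10 on K12 against N2, 0 to 78 between the foods and 49 to 1774 in all UM10. Of the 9 genes it gave 0 to 7, 0 to 0, 0 to 0 and 0 to 6 in the same order, and of the pathway lists 0 to 21, 0 to 6, 0 to 1 and 0 to 22. Medians of the 9 genes ran over 0.67 to 2.33, 0.18 to 1.96, 0.08 to 0.67 and 0.40 to 2.16. Signs turned for glh-1 in UM10 on csgA(-) against N2 (-0.31 without N2 replicate 1, in a range up to 1.27), in UM10 on K12 (0.79 without N2 replicate 2 and 0.15 without UM10 on K12 replicate 1, in a range down to -0.75) and in all UM10 (-0.53 without N2 replicate 1 and -0.03 without UM10 on K12 replicate 2, in a range up to 1.03, and -0.024 with upper-quartile scaling). Between the foods they turned for glh-2 (-0.10), pgl-1 (-0.0099) and wago-1 (-0.0029) without UM10 on K12 replicate 1, and for deps-1 (-0.13) and wago-1 (-0.12) without UM10 on csgA(-) replicate 1, with highest values without 1 library of 0.79 for glh-2, 0.64 for pgl-1, 0.52 for wago-1 and 0.54 for deps-1. For smut-1 in all UM10 they turned with the stranded columns (-0.48 and -0.51).

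Deviations of libraries with the same replicate number correlated at -0.0789 for UM10 on csgA(-) with N2, 0.354 for UM10 on K12 with N2 and 0.0933 between the UM10 groups, so the numbers were not taken as a pairing. With a replicate block all the same, 2434 genes were called in UM10 on csgA(-) against N2, 845 in UM10 on K12 against N2, 165 between the foods and 2418 in all UM10. Of the 9 genes 6, 1, 0 and 5 were called, and of the pathway lists 19, 8, 2 and 24.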
